A study of Homo sapiens with 6 samples.

Results

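Small heat shock proteins are chaperones that do not use ATP: they hold unfolding proteins in a soluble state until other chaperones refold them or degradation pathways take them. BAG3 is a cochaperone that links the small heat shock protein HSPB8 to HSP70 chaperones and hands damaged cytoskeletal proteins to selective autophagy. In striated muscle these proteins protect desmin, actin, titin and filamin at the Z-disc, and mutations of CRYAB, HSPB8 and BAG3 cause myopathies. The 8 genes described here are CRYAB, HSPB1, HSPB2, HSPB3, HSPB6, HSPB7, HSPB8 and BAG3. They were chosen by name, and the counts of their RefSeq transcripts were summed per gene. Each gene had 1 transcript in the table, and the 8 genes were among 24408 genes in all. All 8 passed the filter on low counts, which left 15778 genes to test.

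The study sequenced polyadenylated RNA from primary human dermal fibroblasts of 1 Coriell line, in 3 groups of 2 libraries described as biological duplicates. The untreated group is labelled as expressing no added gene. The WT-MyoD group carried a Tet-ON lentivirus for mouse MyoD, the skeletal muscle transcription factor. The VP64-MyoD group carried the same vector with the VP64 activation domain fused by a short linker to the N-terminus of mouse MyoD. In both vectors the factor was made together with the red fluorescent protein dsRed-Express2 through a T2A peptide. Both transduced groups went through selection in puromycin at 1 µg/mL, and doxycycline at 3 µg/mL then switched the factor on for 10 days before RNA was taken. Whether the untreated cells saw virus, puromycin or doxycycline is not in the labels, so an effect of these steps and an effect of MyoD cannot be told apart in comparisons with that group. Since all 6 libraries come from 1 line, the spread behind each p-value is between its cultures. The test shares that estimate over the 3 groups and draws it toward the spread of other genes.

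Library totals lay between 40997586 and 53804224 counts. The mouse MyoD transgene, which checks the labels, had 5.09 and 1.05 CPM in the untreated libraries (254 and 46 counts), so that its reads were few but not absent there. Its mean was 886.4 ± 180 CPM under WT-MyoD and 106.0 ± 13 CPM under VP64-MyoD (SD, n = 2 each). Transgene RNA was thus 8.37-fold lower with VP64-MyoD. The form of the factor and the level of its RNA cannot be told apart when the 2 MyoD groups are compared. CPM is the count of a gene relative to its library total, here with TMM scaling unless stated. The summed level of 8 skeletal muscle markers rose from between 4.72 and 4.92 CPM in untreated libraries to between 415.9 and 461.1 CPM under WT-MyoD and between 3237.8 and 3701.8 CPM under VP64-MyoD. The 9 fibroblast markers summed to between 41497.8 and 43825.7 CPM, between 27058.3 and 31082.5 CPM and between 28744.6 and 31134.9 CPM in the same order of groups, sums that are mostly COL1A1 and COL1A2. Singly, 3 of the 9 were called higher and 4 lower with WT-MyoD, and 1 was called higher and 7 lower with VP64-MyoD. Over all genes tested, 25.7% were called higher and 22.2% lower with WT-MyoD, at an adjusted p under 0.05. With VP64-MyoD these shares were 33.0% and 30.0%. DCN, the matrix proteoglycan decorin, averaged 974.6 ± 48 CPM in untreated cells, 1542.5 ± 24 under WT-MyoD and 375.2 ± 5.0 under VP64-MyoD (SD, n = 2 each). That order was also seen for HSPB6 and HSPB7, but among the other fibroblast markers only for THY1 (means of 600.9, 694.9 and 564.8 CPM). By mean, the remaining fibroblast markers were highest in untreated cells, except LUM, which was lowest there. The libraries are of bulk RNA, so fewer cells of a type and less RNA per cell cannot be told apart.

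Promoter sequences of 6 of the 8 genes were matched by symbol in the RefSeq table of the GRCh38.p14 build. CRYAB and HSPB2 were not matched. The 250 bases before each RefSeq start were searched on both strands for the E-box CANNTG, the core to which MyoD and other basic helix-loop-helix factors bind. They were also searched for a short form of the heat shock element (GAANNTTC or TTCNNGAA), for the MEF2 motif, and for the CArG box, which serum response factor binds. Shown first are 3 promoters that hold an E-box beside a heat shock element, of HSPB3, HSPB1 and HSPB6. These genes went 3 different ways in the comparisons that follow. The printed part ends where any GENCODE 29 exon of the gene begins, and capitals mark the motifs. The intervals are chr5:54455449-54455600 on the plus strand for HSPB3, chr7:76302423-76302543 on the plus strand for HSPB1 and chr19:35757034-35757279 on the minus strand for HSPB6.
HSPB3: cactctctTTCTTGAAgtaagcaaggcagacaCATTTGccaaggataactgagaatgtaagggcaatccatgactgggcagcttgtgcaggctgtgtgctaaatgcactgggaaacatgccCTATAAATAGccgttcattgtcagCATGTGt
HSPB1: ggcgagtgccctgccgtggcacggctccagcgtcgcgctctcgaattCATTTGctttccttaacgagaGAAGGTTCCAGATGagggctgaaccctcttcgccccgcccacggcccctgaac
HSPB6: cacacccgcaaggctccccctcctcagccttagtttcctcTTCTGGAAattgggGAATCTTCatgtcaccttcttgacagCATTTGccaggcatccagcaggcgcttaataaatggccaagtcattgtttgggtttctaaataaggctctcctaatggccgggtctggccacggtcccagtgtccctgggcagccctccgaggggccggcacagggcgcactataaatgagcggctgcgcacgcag

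In HSPB3 the capitals are, from the left, a heat shock element 242 bases before the start, an E-box, the MEF2 match CTATAAATAG 129 bases before the start, and a second E-box. These distances are to the RefSeq start, while the first GENCODE 29 exon of HSPB3 begins 98 bases before it, shortly after the MEF2 match. A further E-box of HSPB3 lay in an annotated exon, which makes 3 in all. In HSPB1 a heat shock element directly preceded the second of 2 E-boxes, with no base between them. HSPB6 had 2 heat shock elements and 1 E-box. The windows of HSPB7 and HSPB8 began within GENCODE 29 exons annotated for these genes, so 30 bases around each match are given. Each of these matches also began in such an exon, and the rest of the windows was not examined for this. These are the MEF2 match of HSPB7 (chr1:16018106-16018135, minus strand, 82 bases before the start), and the E-box (chr12:119178786-119178815) and the heat shock element (chr12:119178832-119178861) of HSPB8 on the plus strand.
HSPB7 MEF2: atggagaggcCTAAATTTAGctagtagaca
HSPB8 E-box: ccccccacagccCAGCTGttccctccgcgg
HSPB8 heat shock element: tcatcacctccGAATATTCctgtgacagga

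The HSPB8 site was the single CAGCTG, an E-box form that MyoD prefers, in the 6 windows. Of 35116 promoters in the same table, 61.8% had an E-box within 250 bases of the start, 14.0% had CAGCTG and 11.6% had the short heat shock element. The MEF2 motif was in 2.8% and the CArG box in 1.16%. The CArG box was in none of the 6 windows. The BAG3 window held none of the motifs searched, which says only that these letters are not in those 250 bases. A match is a run of letters and not a measured binding site.

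With WT-MyoD, 6 of the 8 genes rose over untreated cells and none was called lower. Across all genes tested, 47.9% were called in this comparison at an adjusted p under 0.05, 25.7% higher and 22.2% lower (edgeR quasi-likelihood test, Benjamini-Hochberg adjustment over 15778 genes). The genes that rose were CRYAB, HSPB2, HSPB3, HSPB6, HSPB7 and HSPB8. The median log2 fold change of the 8 genes was 0.88, and that of all genes 0.0.

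With VP64-MyoD, all 8 genes were called against untreated cells: 5 rose and HSPB6, HSPB7 and BAG3 fell. The BAG3 call was lost without any 1 of the 4 libraries compared, and its direction turned by plain CPM, as given with its values. The background was 63.1% of genes called, 33.0% higher and 30.0% lower. Between VP64-MyoD and WT-MyoD, 6 of the 8 genes were called, with CRYAB, HSPB1, HSPB3 and HSPB8 higher with VP64-MyoD and HSPB6 and HSPB7 lower. The background there was 56.6%, with 28.4% higher and 28.2% lower. The median log2 fold change of the 8 genes was 0.97 over untreated with VP64-MyoD (0.03 for all genes) and 0.25 between the MyoD forms (0.02 for all genes). More than 2-fold differences were called for 4, 6 and 3 of the 8 genes in the order of comparisons given, against 15.6%, 19.7% and 14.4% of all genes. The 2 comparisons with untreated cells share the same untreated libraries.

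**Figure D1:**
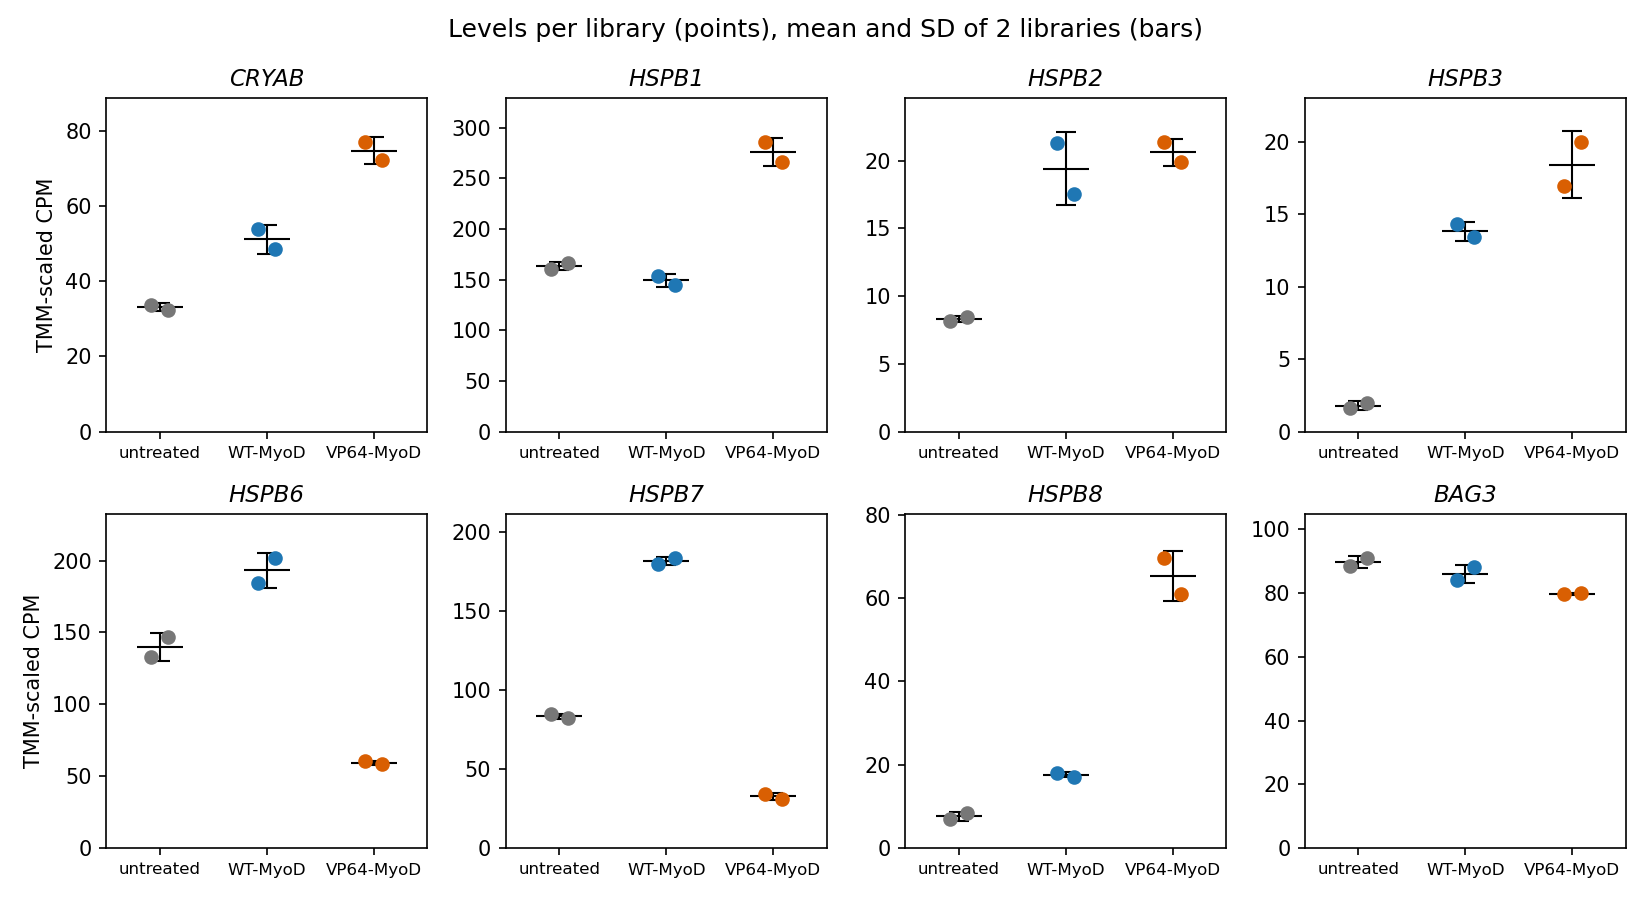
Level of each of the 8 genes in TMM-scaled CPM (vertical axis, from 0, a different scale in each panel) in untreated, WT-MyoD and VP64-MyoD fibroblasts. Points are the 2 libraries of a group, and bars are the mean and SD. CRYAB and HSPB8 stepped upward over the groups, HSPB6 and HSPB7 were highest with WT-MyoD and lowest with VP64-MyoD, and BAG3 stayed between 79.6 and 91.1 CPM.

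HSPB8, the small heat shock protein that BAG3 carries, had 6.86 and 8.27 CPM in the untreated libraries, 18.0 and 17.1 CPM with WT-MyoD, and 69.7 and 61.0 CPM with VP64-MyoD. The groups did not overlap, and the VP64-MyoD libraries stood far above the other 4. HSPB8 was 2.33-fold higher with WT-MyoD than in untreated cells (log2 change 1.22, SE 0.1, edgeR adjusted p = 8.2e-08). With VP64-MyoD it was 8.66-fold higher than in untreated cells (log2 change 3.11, SE 0.1, edgeR adjusted p = 4.5e-13). It was also 3.71-fold higher under VP64-MyoD than under WT-MyoD (log2 change 1.89, SE 0.09, edgeR adjusted p = 1.3e-10).

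BAG3, which bridges HSPB8 and HSP70, had 88.6 and 91.1 CPM in untreated libraries, 84.1 and 88.1 CPM with WT-MyoD, and 79.6 and 80.0 CPM with VP64-MyoD. Its whole range over the 6 libraries was narrow beside that of HSPB8. BAG3 was called lower with VP64-MyoD than in untreated cells by 0.17 on the log2 scale (log2 change -0.17, SE 0.06, edgeR adjusted p = 0.0239). Leaving out any 1 of the 4 untreated and VP64-MyoD libraries ended this call, with adjusted p between 0.0664 and 0.137. Over all 15 alternative settings its adjusted p ran from 0.00306 to 0.137. By plain CPM, without TMM scaling, BAG3 averaged 82.7 CPM in untreated cells, 89.2 CPM with WT-MyoD and 83.6 CPM with VP64-MyoD, which turns the direction of both comparisons with untreated cells. BAG3 did not pass the test between WT-MyoD and untreated cells (log2 fold change -0.06, 95% interval -0.19 to 0.07, edgeR adjusted p = 0.437). Between VP64-MyoD and WT-MyoD the log2 fold change was -0.11 (95% interval -0.24 to 0.02, edgeR adjusted p = 0.143), and it was called without WT-MyoD replicate 1 (-0.14, adjusted p = 0.0459, the lowest of a range up to 0.371 over the 15 alternatives).

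Because HSPB8 rose while BAG3 moved little, the ratio of their levels per kilobase of transcript changed. HSPB8 stood at 0.0925 and 0.108 of BAG3 in the untreated libraries, 0.256 and 0.232 under WT-MyoD, and 1.05 and 0.91 under VP64-MyoD. The 2 transcripts were thus at similar levels per kilobase with VP64-MyoD. HSPB6, which also binds BAG3, moved differently: its ratio to BAG3 was 2.65 and 2.84 in untreated libraries, 3.87 and 4.05 under WT-MyoD, and 1.34 and 1.28 under VP64-MyoD. These ratios describe mRNA and have no test of their own. Transcript lengths came from the matched GENCODE 29 transcripts, so levels per kilobase rest on that annotation and not on the authors' gene models.

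CRYAB, the alpha-B crystallin that chaperones desmin, had 33.8 and 32.3 CPM in untreated libraries, 54.0 and 48.5 CPM with WT-MyoD, and 77.2 and 72.3 CPM with VP64-MyoD. The groups were ordered without overlap. CRYAB rose 1.55-fold with WT-MyoD (log2 change 0.63, SE 0.07, edgeR adjusted p = 3.0e-06) and 2.26-fold with VP64-MyoD (log2 change 1.18, SE 0.07, edgeR adjusted p = 1.4e-09). The VP64-MyoD libraries were 1.46-fold above those with WT-MyoD (edgeR adjusted p = 1.1e-05). CRYAB is also a lens protein. Of 7 lens markers, CRYAA, BFSP2 and LIM2 had no count in any library, which allows up to 3 read pairs a library. The lens list summed to between 2.04 and 2.08 CPM in untreated cells and between 4.5 and 5.03 CPM with VP64-MyoD.

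HSPB1, the widely expressed HSP27 that binds actin filaments, had 160.9 and 166.1 CPM in untreated libraries, 153.6 and 145.0 CPM with WT-MyoD, and 286.5 and 266.1 CPM with VP64-MyoD. The VP64-MyoD libraries were high, and the WT-MyoD libraries lay just under the untreated ones. By plain CPM that order turned, with HSPB1 averaging 150.5 CPM in untreated cells and 155.0 CPM with WT-MyoD. HSPB1 rose with VP64-MyoD, 1.69-fold over untreated cells (log2 change 0.76, SE 0.06, edgeR adjusted p = 5.7e-08) and 1.85-fold over WT-MyoD (log2 change 0.89, SE 0.06, edgeR adjusted p = 1.3e-08). Between WT-MyoD and untreated cells it did not pass the test (log2 fold change -0.13, 95% interval -0.27 to 0.01, edgeR adjusted p = 0.111). Without WT-MyoD replicate 1, that difference was called lower (-0.18, adjusted p = 0.015, the lowest of a range up to 0.368 over the 15 alternatives).

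HSPB2 and HSPB3 form a complex with each other in muscle, and HSPB2 was found as a binding partner of the myotonic dystrophy kinase DMPK. HSPB3 was the lowest of the 8 genes in untreated cells, at 1.6 and 2.0 CPM, which were 80 and 88 counts. It reached 14.3 and 13.4 CPM with WT-MyoD and 16.9 and 20.0 CPM with VP64-MyoD, far above both untreated libraries. HSPB3 rose 7.71-fold with WT-MyoD (log2 change 2.95, SE 0.14, edgeR adjusted p = 7.6e-11) and 10.3-fold with VP64-MyoD (log2 change 3.36, SE 0.14, edgeR adjusted p = 9.7e-12). It was 1.33-fold higher under VP64-MyoD than under WT-MyoD (log2 change 0.42, SE 0.11, edgeR adjusted p = 0.00442). That last call was lost without VP64-MyoD replicate 2 (0.28, adjusted p = 0.109, the highest of a range from 2.7e-04 over the 15 alternatives).

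HSPB2 had 8.14 and 8.45 CPM in untreated libraries, 21.3 and 17.5 CPM with WT-MyoD, and 21.4 and 19.9 CPM with VP64-MyoD. Both MyoD groups were above untreated cells, and they overlapped each other. HSPB2 rose 2.34-fold with WT-MyoD (log2 change 1.23, SE 0.11, edgeR adjusted p = 1.0e-07) and 2.49-fold with VP64-MyoD (log2 change 1.31, SE 0.11, edgeR adjusted p = 3.4e-08). No difference between the MyoD forms was called (log2 fold change 0.08, 95% interval -0.13 to 0.3, edgeR adjusted p = 0.494). That value rested on the WT-MyoD libraries: it was 0.24 without replicate 1 (adjusted p = 0.0491) and -0.06 without replicate 2 (adjusted p = 0.614). Its adjusted p ran from 0.0491 to 0.857 over the 15 alternatives. DMPK rose too, from 46.6 ± 1.1 CPM to 258.8 ± 2.8 CPM with WT-MyoD and 217.1 ± 20 CPM with VP64-MyoD (SD, n = 2 each).

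CRYAB and HSPB2 are neighbours transcribed in opposite directions, and the annotated span of CRYAB overlaps HSPB2. Tagmentation libraries like these keep no record of the strand, so reads in a stretch shared by both genes cannot be assigned to one gene. Whether the transcripts counted here for CRYAB and HSPB2 reach into such a stretch was not measured. Per kilobase, CRYAB stood at 5.68 and 5.22 times HSPB2 in untreated libraries, 3.46 and 3.79 times with WT-MyoD, and 4.94 and 4.97 times with VP64-MyoD. The ratio was thus lowest with WT-MyoD. The read-through gene HSPB2-C11orf52 was at 0.815 ± 0.13, 1.16 ± 0.058 and 0.909 ± 0.0094 CPM (SD, n = 2 each) in the 3 groups and was not called in any comparison.

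HSPB6 and HSPB7 went in opposite directions under the 2 MyoD forms. HSPB6, the HSP20 protein that cyclic nucleotide-dependent kinases phosphorylate in muscle, had 132.8 and 146.7 CPM in untreated libraries, 184.5 and 202.0 CPM with WT-MyoD, and 60.3 and 58.2 CPM with VP64-MyoD. The WT-MyoD libraries were the highest and the VP64-MyoD libraries the lowest, with no overlap. HSPB6 rose 1.38-fold with WT-MyoD (log2 change 0.47, SE 0.07, edgeR adjusted p = 3.7e-05). It fell 2.36-fold with VP64-MyoD (log2 change -1.24, SE 0.07, edgeR adjusted p = 5.0e-10) and was 3.26-fold lower than with WT-MyoD (log2 change -1.71, SE 0.07, edgeR adjusted p = 2.0e-11).

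HSPB7, a heart and skeletal muscle family member that binds filamin C, showed a wider spread between the groups. It had 84.6 and 82.3 CPM in untreated libraries, 180.0 and 183.7 CPM with WT-MyoD, and 34.3 and 30.9 CPM with VP64-MyoD. The groups stood in the same order as for HSPB6. HSPB7 rose 2.18-fold with WT-MyoD (log2 change 1.12, SE 0.07, edgeR adjusted p = 7.4e-10). It fell 2.56-fold with VP64-MyoD (log2 change -1.36, SE 0.07, edgeR adjusted p = 1.0e-10). The VP64-MyoD level was 5.57-fold below that with WT-MyoD (log2 change -2.48, SE 0.07, edgeR adjusted p = 2.8e-13). Of the 8 heart markers, NKX2-5 and MYL7 had no count in any library. The list's sum, between 0.0401 and 0.136 CPM in untreated cells, between 22.4 and 25.7 CPM with WT-MyoD and between 171.5 and 187.2 CPM with VP64-MyoD, was mostly MYL4, a light chain also made in embryonic skeletal muscle. That sum was highest in the group in which HSPB7 was lowest.

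The neighbours of HSPB6 had far lower levels than it did: LIN37 and PROSER3 averaged between 3.13 and 6.42 CPM in the 3 groups.

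**Figure D2:**
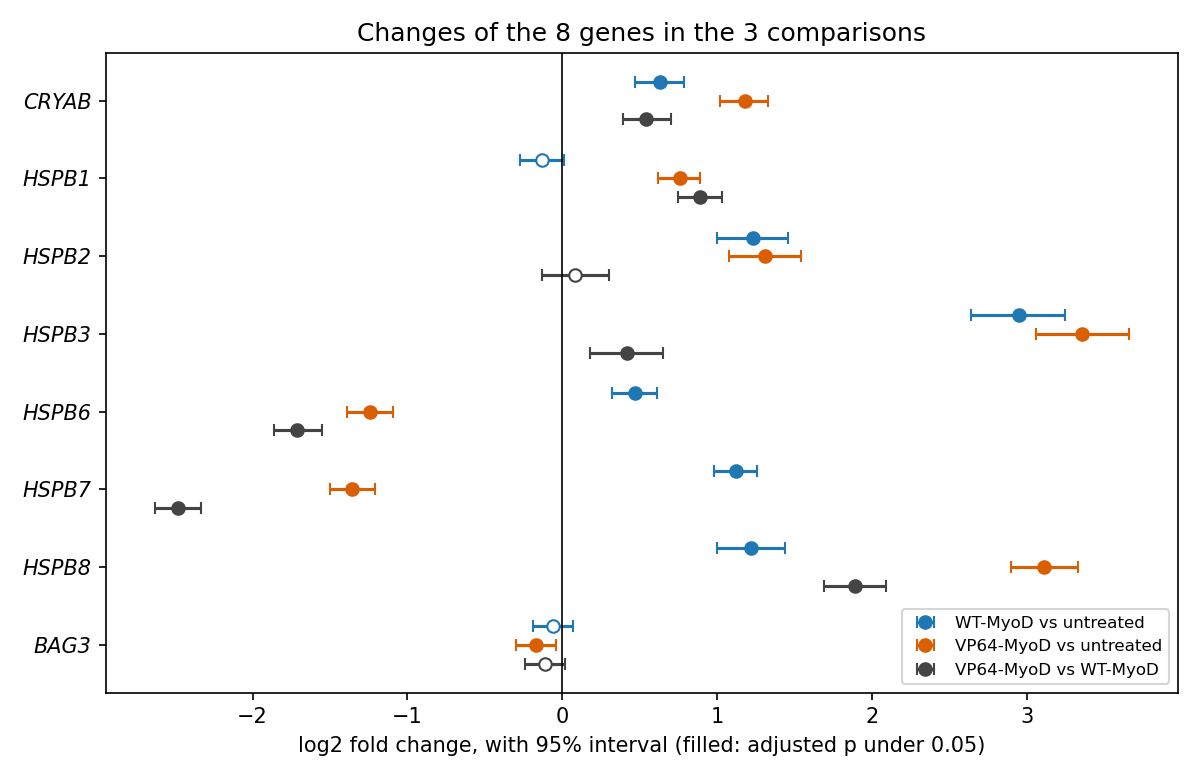
Log2 fold change (horizontal axis) of each of the 8 genes (rows) in the 3 comparisons, with its 95% interval. Filled points have an adjusted p under 0.05. HSPB6 and HSPB7 lie on opposite sides of 0 for WT-MyoD and VP64-MyoD, while HSPB3 and HSPB8 reach 3.36 and 3.11 under VP64-MyoD.

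The authors' deposited table of comparisons, with 3135 transcripts, lists 5 of the 8 genes. For HSPB7 the authors' deposited table gives log2 fold changes over untreated of 1.13 under WT-MyoD and -1.35 under VP64-MyoD. For HSPB8 the authors' deposited table gives 1.22 and 3.11, and for HSPB3 it gives 2.94 and 3.36. CRYAB and HSPB2 are also in the authors' deposited table, at 1.18 and 1.32 under VP64-MyoD. HSPB1, HSPB6 and BAG3 are not among the rows of that table. The largest adjusted p of the authors' own comparisons listed there is 9.8e-06 for WT-MyoD and 1.0e-05 for VP64-MyoD. A gene's absence from it therefore does not show that the gene was unchanged. The authors' values rest on the same libraries and are no independent check.

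Per kilobase of transcript, the level order of the 8 genes was rearranged by each MyoD form. In untreated cells HSPB1 led at 179.8 ± 4.0 CPM per kilobase, followed by HSPB6 at 95.9 ± 6.7 (SD, n = 2 each). BAG3, CRYAB and HSPB7 followed, between 28.9 and 34.9 CPM per kilobase on average, and the libraries of BAG3 and CRYAB overlapped. HSPB2, HSPB8 and HSPB3 were lowest, at 6.21, 3.51 and 2.3 CPM per kilobase. With WT-MyoD, HSPB7 moved to the third place at 62.9 ± 0.91 CPM per kilobase, above CRYAB at 52.4 ± 4.0, and neighbours in the order did not overlap. With VP64-MyoD, CRYAB took the second place at 76.5 ± 3.6 CPM per kilobase, and HSPB7 was the lowest at 11.3 ± 0.84. That last place rests on the transcript length of 2892 bases taken for HSPB7, the longest of the 8: in CPM, HSPB7 at 32.6 was above HSPB2 at 20.6 and HSPB3 at 18.4. BAG3 and HSPB8 overlapped there, at 31.0 ± 0.13 and 30.4 ± 2.9 CPM per kilobase.

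The 7 small heat shock protein genes together summed to 343.4 and 357.6 CPM per kilobase in untreated libraries, 455.6 and 449.3 under WT-MyoD, and 517.3 and 486.2 under VP64-MyoD. The sum was higher in each MyoD group, without overlap, but its makeup differed. HSPB1 made up 51.5% and 51.1% of it in untreated libraries, 37.1% and 35.5% under WT-MyoD, and 60.9% and 60.2% under VP64-MyoD. HSPB6 took 27.8% and 30.9% of the sum under WT-MyoD and 8.0% and 8.22% under VP64-MyoD. HSPB7 took 13.7% and 14.1% under WT-MyoD and 2.3% and 2.2% under VP64-MyoD, shares that would be larger with a shorter transcript. HSPB8 took 0.928% and 1.07% in untreated libraries and 6.26% and 5.83% under VP64-MyoD. The shares are a description and were not tested. The larger sum of the VP64-MyoD group was therefore carried by HSPB1, CRYAB and HSPB8, and that of the WT-MyoD group by HSPB6, HSPB7 and CRYAB.

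**Figure D3:**
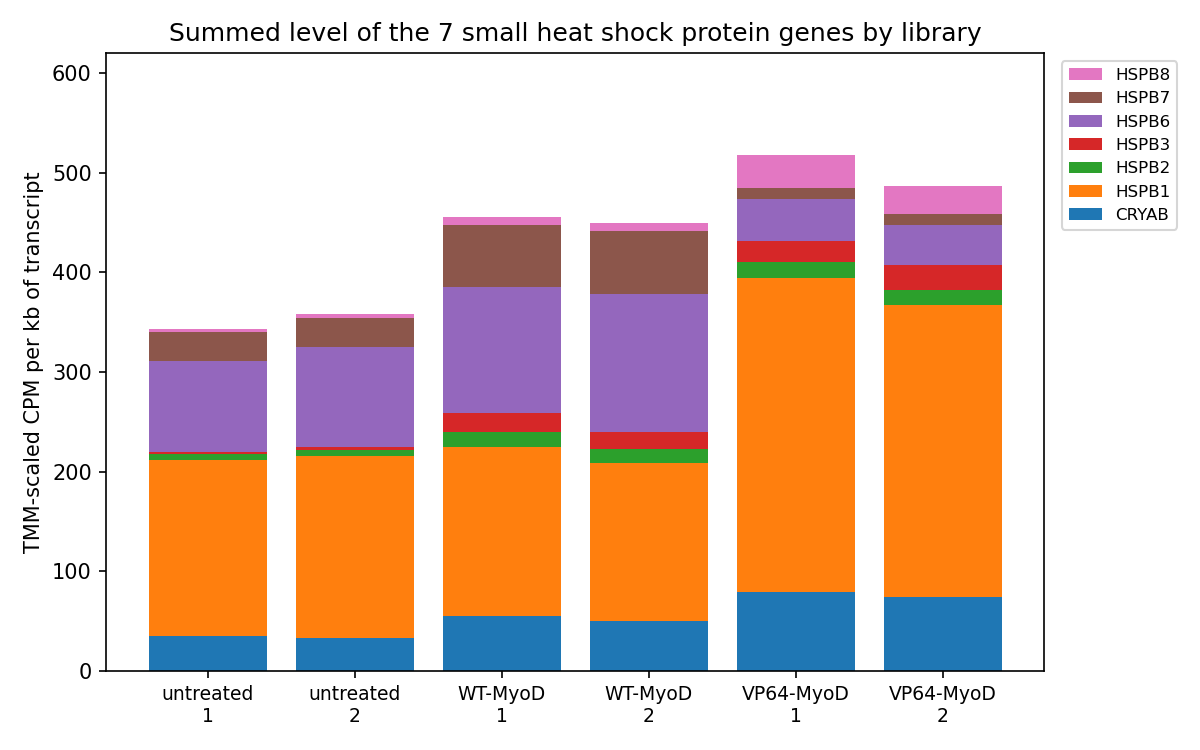
Summed level of the 7 small heat shock protein genes in each of the 6 libraries, in TMM-scaled CPM per kilobase of transcript (vertical axis, from 0), with each gene as a stacked segment. The HSPB6 and HSPB7 segments are widest with WT-MyoD and narrow with VP64-MyoD, where HSPB1 makes up 60.9% and 60.2% of the sum.

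The patterns of the 8 genes over the 6 libraries were compared with each other as the root mean square difference of log2 levels after each gene was centred on its own mean. The nearest members were CRYAB and HSPB2 (0.256), CRYAB and HSPB1 (0.313), and HSPB6 and HSPB7 (0.347). HSPB7 and HSPB8 were the farthest apart (2.08). The same measure was taken over 13063 genes with a mean of at least 1 CPM. TNIP1 was nearest to CRYAB (0.0392), GTF3C6 to HSPB1 (0.0389), PLA2G4C to HSPB2 (0.0777) and ANKRD10 to HSPB3 (0.13). ATP2B4 was nearest to HSPB6 (0.0575), CMKLR1 to HSPB8 (0.109) and PLPBP to BAG3 (0.0118). TMEM38B, second nearest to HSPB8, went from 8.98 ± 0.23 to 19.0 ± 1.4 and 78.2 ± 8.6 CPM. Other near patterns were those of BAIAP2 and SNURF for CRYAB, DOCK10 and FRMD6 for HSPB1, HMGA2 and CHAC2 for HSPB2, and TUBA4A and FBXL22 for HSPB3. For HSPB6 they were ZFP36 and CPXM2, for HSPB7 C2 (0.0635) and PTGES, for HSPB8 EXOC6, and for BAG3 UBE2R2 and PANK4. These likenesses over 6 libraries of 1 experiment are a description.

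The chaperones that act with small heat shock proteins were read from fixed lists. Among all genes tested, 25.7% were called higher and 22.2% lower with WT-MyoD, and 33.0% higher and 30.0% lower with VP64-MyoD. Of 13 HSP70 and HSP110 genes, 12 were tested: 7 were higher, 1 lower and 4 not called with WT-MyoD, and 4 were higher, 3 lower and 5 not called with VP64-MyoD. The stress-inducible HSPA1A and HSPA1B moved as HSPB6 and HSPB7 did. HSPA1A averaged 68.5 ± 0.21 CPM in untreated cells, 86.6 ± 1.0 under WT-MyoD and 45.4 ± 0.39 under VP64-MyoD (SD, n = 2 each). Its log2 fold changes over untreated were 0.34 (edgeR adjusted p = 2.3e-04) and -0.59 (edgeR adjusted p = 5.6e-07). HSPA1B gave 0.34 and -0.63, but it is nearly identical to HSPA1A, so reads of the 2 genes may have been split between them. The constitutive HSPA8 rose with both forms, from 665.3 ± 9.1 CPM to 765.4 ± 8.8 under WT-MyoD and 1003.3 ± 17 under VP64-MyoD (edgeR adjusted p = 0.0159 and 8.7e-07). HSPH1, the HSP110 nucleotide exchange factor, rose by 0.52 and 0.78 on the log2 scale. The mitochondrial HSPA9 fell with WT-MyoD (log2 fold change -0.83, edgeR adjusted p = 1.9e-08), while its value with VP64-MyoD was 0.08 (adjusted p = 0.283).

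The J-domain proteins, which load clients onto HSP70, were mixed: of 10 tested, 4 were higher and 2 lower with WT-MyoD, and 6 were higher and 2 lower with VP64-MyoD. The background was 47.9% of genes called with WT-MyoD and 63.1% with VP64-MyoD. DNAJB4 rose most by fold, from 28.0 ± 1.2 CPM in untreated cells to 58.1 ± 4.9 under WT-MyoD and 89.7 ± 0.92 under VP64-MyoD (edgeR adjusted p = 7.2e-09 and 1.9e-11). DNAJB1, the heat-inducible partner of HSPA1A, fell with both forms (log2 fold changes -0.33 and -0.45, edgeR adjusted p = 8.5e-04 and 3.6e-05). DNAJB6 fell with WT-MyoD (-0.34) and rose with VP64-MyoD (0.38). DNAJB5 rose with VP64-MyoD (0.59) and DNAJB2 fell (-0.58), and neither was called with WT-MyoD.

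Most genes of the HSP90 system and all tested chaperonins were called higher with VP64-MyoD, where 33.0% of all genes tested were. Of 12 HSP90 system genes, 6 were higher and 1 lower with WT-MyoD, and 10 were higher and 1 lower with VP64-MyoD, with medians of 0.19 and 0.62 on the log2 scale. The WT-MyoD background was 25.7% of all genes tested called higher. UNC45B, the myosin chaperone of striated muscle, stood at 0.16 and 0.0909 CPM in untreated libraries, 58.2 and 56.2 CPM with WT-MyoD, and 248.1 and 213.4 CPM with VP64-MyoD. SMYD1, a muscle methyltransferase that works with it, stood at 0.0401 and 0.182 CPM, 16.2 and 15.5 CPM, and 218.5 and 195.0 CPM. The general HSP90AB1 rose from 516.7 ± 16 CPM to 610.3 ± 8.2 and 900.9 ± 30 CPM (edgeR adjusted p = 0.00611 and 3.2e-08), and its cochaperone STIP1 rose by 0.25 and 0.73 on the log2 scale.

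Of 10 chaperonin genes, which build the barrel complexes that fold actin and tubulin in the cytosol and other proteins in mitochondria, 2 were higher and 8 not called with WT-MyoD. With VP64-MyoD 10 of 10 were higher, both over untreated cells (median 0.62) and over WT-MyoD (median 0.51). In these 3 comparisons, in the same order, 25.7%, 33.0% and 28.4% of all genes tested were called higher. CCT2 rose by 0.32 and 1.18 on the log2 scale over untreated (edgeR adjusted p = 8.3e-04 and 4.1e-10). CCT8 rose by 0.26 and 0.84, while TCP1 (0.71) and CCT6A (0.77) were called with VP64-MyoD and not with WT-MyoD.

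Of 4 genes for heat shock factors and their binding protein, 1 was higher and 2 lower with WT-MyoD, and 1 was higher and 1 lower with VP64-MyoD. For these and for the BAG genes below, the background of genes called was 47.9% with WT-MyoD and 63.1% with VP64-MyoD. HSF1, the main activator of the heat shock response, fell with both forms (log2 fold changes -0.38 and -0.3, edgeR adjusted p = 8.9e-05 and 5.4e-04). HSF2 rose with both, by 0.54 and 0.67. Of the 5 other BAG genes, 2 were higher and 3 not called with WT-MyoD, and 1 was lower and 4 not called with VP64-MyoD. BAG2 gave 0.32 and -0.3, the same signs as HSPB6 and HSPB7, and BAG1 rose by 0.5 under WT-MyoD. BAG6 fell by 0.2 between VP64-MyoD and WT-MyoD. Of 4 further small heat shock protein genes, CRYAA had no count, and the 1 tested, IFT25 (formerly HSPB11), averaged between 1.65 and 2.42 CPM. IFT25 was called higher with VP64-MyoD over untreated cells (log2 fold change 0.56, edgeR adjusted p = 0.0343) and was not called in the other comparisons.

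**Figure D4:**
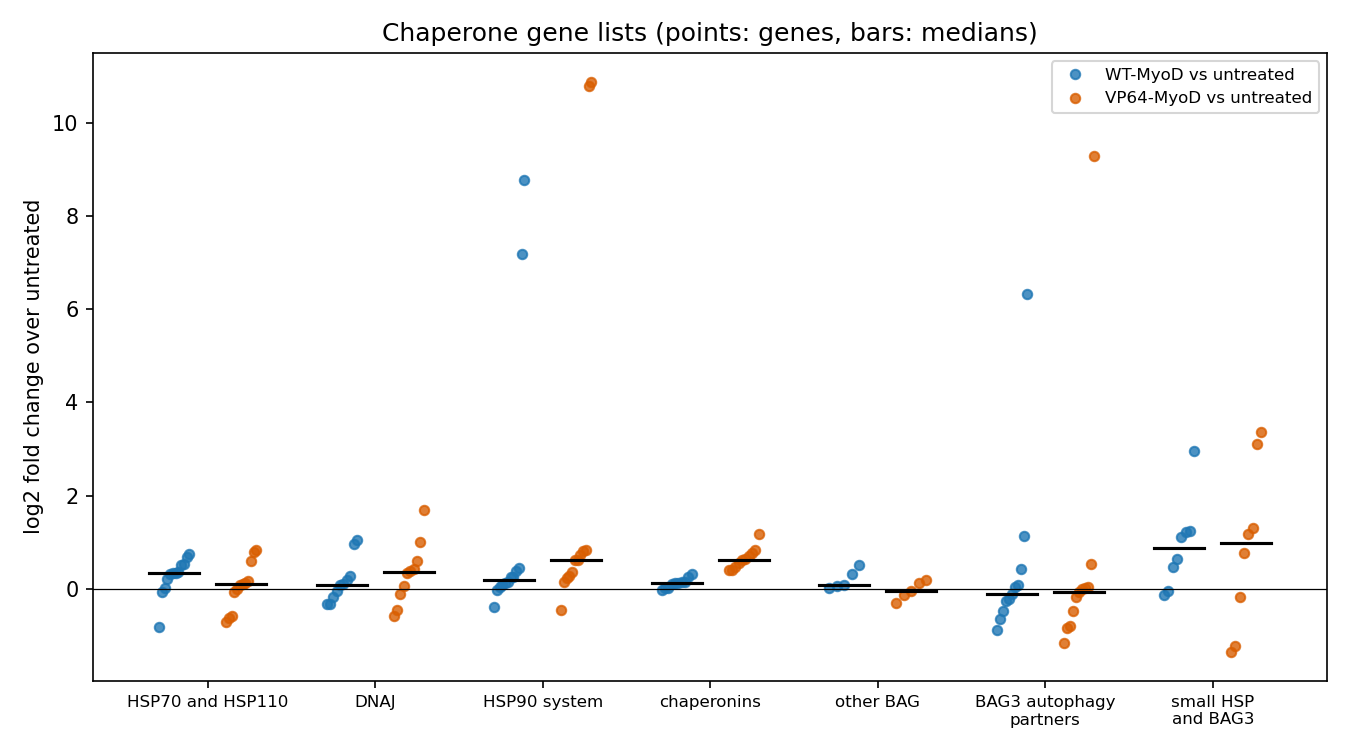
Log2 fold change over untreated cells (vertical axis) of each tested gene of 6 chaperone lists and of the 8 genes, with WT-MyoD in blue and VP64-MyoD in orange. Points are genes and bars are list medians. All 10 chaperonins lie above 0 under VP64-MyoD (median 0.62), the 8 genes spread on both sides of 0, and the points far above the rest are UNC45B, SMYD1 and SYNPO2L, which were near 0 CPM in untreated cells.

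Of 11 partners of BAG3 in selective autophagy, 3 were higher and 5 lower with WT-MyoD, and 2 were higher and 5 lower with VP64-MyoD. The share called over all genes tested was 47.9% with WT-MyoD and 63.1% with VP64-MyoD. SQSTM1, the autophagy receptor p62, fell from 744.3 ± 20 CPM to 538.2 ± 4.1 under WT-MyoD and 331.8 ± 14 under VP64-MyoD (log2 fold changes -0.47 and -1.17, edgeR adjusted p = 1.7e-05 and 3.5e-10). Filamins are actin crosslinkers and BAG3 clients. FLNA fell with both forms (log2 fold changes -0.65 and -0.8, edgeR adjusted p = 3.5e-05 and 2.7e-06), while the muscle filamin FLNC rose by 1.14 and 0.53 (edgeR adjusted p = 2.9e-07 and 5.1e-04). FLNC averaged 978.3 ± 75, 2154.3 ± 440 and 1412.8 ± 81 CPM (SD, n = 2 each) in the 3 groups, so that it was highest with WT-MyoD, as HSPB7 was. SYNPO2L, a muscle relative of the BAG3 partner synaptopodin 2, went from 0.436 ± 0.22 CPM to 34.6 ± 2.0 and 270.6 ± 30 CPM. The gene of synaptopodin 2 itself, SYNPO2, averaged 435.4 ± 19, 583.4 ± 43 and 439.6 ± 32 CPM in the 3 groups. SYNPO2 was called higher with WT-MyoD (log2 fold change 0.42, edgeR adjusted p = 2.0e-04). With VP64-MyoD over untreated it was not called (0.01, edgeR adjusted p = 0.884).

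Of 8 muscle clients and cytoskeletal partners of small heat shock proteins, 7 were tested and all 7 rose with each form over untreated cells. The other, MYOT, did not pass the filter. Called higher among all genes tested were 25.7% with WT-MyoD and 33.0% with VP64-MyoD. DES, the desmin that CRYAB chaperones, had 1.4 and 1.27 CPM in untreated libraries, 139.0 and 132.5 CPM with WT-MyoD, and 1318.7 and 1101.7 CPM with VP64-MyoD. ACTN2, the Z-disc actinin, went from 0.168 ± 0.045 CPM to 34.8 ± 0.83 and 295.4 ± 29 CPM. LDB3 and MYOZ2, both Z-disc proteins, reached 68.9 ± 7.4 and 50.6 ± 3.9 CPM with VP64-MyoD, from 1.29 ± 0.17 and 0.188 ± 0.074 CPM in untreated cells. Desmin rose far more than its chaperone CRYAB, with log2 fold changes over untreated of 9.81 and 1.18 in the VP64-MyoD group.

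Markers of other cell types that express these chaperones were read beside them. The 5 smooth muscle markers, of which all 5 were tested, summed to 146.4 CPM in both untreated libraries, 113.2 CPM in both WT-MyoD libraries, and between 169.4 and 178.6 CPM with VP64-MyoD. The list was mixed: SMTN averaged 41.8, 70.2 and 144.0 CPM in the 3 groups, LMOD1 averaged 73.3, 38.7 and 22.3 CPM, and CNN1 averaged 29.5, 1.88 and 5.47 CPM. The 6 neuron markers summed to between 38.4 and 38.9 CPM, between 74.2 and 80.8 CPM and between 120.1 and 125.4 CPM in the 3 groups. That sum was mostly TUBB3, at 34.9, 64.2 and 51.7 CPM on average, and STMN2, at 3.7, 9.38 and 63.1 CPM. RBFOX3 and SNAP25 did not pass the filter. The 5 blood and endothelium markers summed to between 1.77 and 3.17 CPM in all libraries, with HBB at 0. The part of the fibroblast, skeletal muscle, smooth muscle, neuron or heart markers in the levels of the 8 genes was not tested.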

How the data were processed

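The hg19 build, CASAVA, Bowtie 0.12.9 and DESeq 1.10.1 are named in the submitters' processing notes. Which step each tool did is not given in the sources used here. The deposited count table holds raw read counts per RefSeq transcript for 6 libraries. Every deposited count is even, as it would be if a read pair gave 2 counts, and statements on read pairs rest on that reading. A second deposited table, of the authors' own comparisons, holds a signal per group (mean counts divided by size factors), a fold ratio, a log2 fold change, and p-values with adjusted p-values, per the file headers. It entered no test.

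Of 40710 transcript rows, 39320 were named by RefSeq accession and 521 through GENCODE 29. The 868 rows without a symbol, with 0.601% to 0.744% of a library's counts, kept their accession, and 1 row was the transgene. Rows were summed per gene. Genes were tested in 1 fit of 6 libraries (3 residual degrees of freedom) with edgeR 4.0.16 in R 4.3.3: TMM, filterByExpr (minimum count 10, minimum total 15), two-sided quasi-likelihood test, Benjamini-Hochberg adjustment, calls at an adjusted p under 0.05. The SE is the size of the log2 fold change divided by the root of its F statistic, and 95% intervals use the same fit. Replicates differed by more than sampling noise (chi-square per degree of freedom 3.43, 13.5 and 5.88 in untreated, WT-MyoD and VP64-MyoD cells). The script was tested on simulated data.

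The 8 genes and the lists were chosen with earlier results of these data known. Named besides the 8 genes were from each list up to 4 genes, those with the lowest adjusted p in the comparisons of VP64-MyoD with untreated cells and with WT-MyoD, and for each of the 8 genes the 3 genes of nearest pattern. DMPK, as the binding partner of HSPB2, and the neighbours of HSPB2 and HSPB6 were named outside that rule, with their values seen. Some genes that the rule names are not reported here. Alternatives were DESeq2 1.42.0, limma-voom (limma 3.58.1), RLE and upper quartile factors, other filters, halved counts, a replicate block, fits of 2 groups, and leaving out each library. Sequences are from RefSeq (GRCh38.p14), a newer build than that of the counts.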

Additional observations from a re-analysis of the deposited data

Results flagged for a closer look

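HSPB6 and HSPB7 differed in direction between the MyoD forms. Each rose over untreated cells with WT-MyoD and fell with VP64-MyoD, and the difference between the forms was itself tested. For HSPB6 the log2 fold change of VP64-MyoD over WT-MyoD was -1.71 (edgeR adjusted p = 2.0e-11), and for HSPB7 it was -2.48 (edgeR adjusted p = 2.8e-13). In both genes the 2 libraries of each form lay on opposite sides of both untreated libraries.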

How the results depend on the processing

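The 24 log2 fold changes of the 8 genes were each recomputed under 15 alternatives. Of the 360 values, 351 kept their direction and their side of the threshold, and 19 of the 24 fold changes did so throughout. The other 9 values came from leaving out 1 library, and their cause, beyond fewer libraries, was not tested. HSPB2 between VP64-MyoD and WT-MyoD turned from 0.08 to -0.06 without WT-MyoD replicate 2 (adjusted p = 0.614) and was called at 0.24 without WT-MyoD replicate 1 (adjusted p = 0.0491). HSPB3 between the MyoD forms lost its call without VP64-MyoD replicate 2, and BAG3 with VP64-MyoD over untreated lost it without each of the 4 libraries compared. HSPB1 with WT-MyoD over untreated and BAG3 between the forms gained a call without WT-MyoD replicate 1. The number of genes called ran from 5956 to 7916 for WT-MyoD over untreated, from 8349 to 10807 for VP64-MyoD over untreated, and from 7061 to 9217 between the forms. Of the 8 genes, between 6 and 7, 7 and 8, and 5 and 8 were called. With DESeq2, limma-voom, other size factors and other filters no call among the 8 genes changed. By plain CPM, 11 of 24 levels moved by more than 1 SD, and with RLE factors 0 of 24 did. The ratio to the TMM-scaled level lay between 0.92 and 1.05. Plain CPM turned the direction of BAG3 in both comparisons with untreated cells and that of HSPB1 with WT-MyoD. The 2 libraries of a group limit the precision of differences of the size seen for BAG3.

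With the replicate number as a block, 7531, 9905 and 8893 genes were called, against 7555, 9949 and 8925 without it, and 6, 8 and 6 of the 8 genes in both fits. Deviations of same-numbered libraries correlated at 0.071, -0.016 and -0.031, so no strong shared deviation was seen. The labels do not say whether a replicate number marks cultures handled together, and these correlations cannot tell.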
